A study of Mus musculus with 6 samples.

Results

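Cytosolic ribosomal protein genes encode the proteins of the small and the large subunit of the ribosome that translates nuclear mRNAs. They were measured in basal epidermal cells of mouse embryos at E18.5, 3 wild-type (WT) samples and 3 samples homozygous for Pik3ca H1047R (labelled PIK). Pik3ca encodes the catalytic subunit of a phosphoinositide 3-kinase (PI3K), and H1047R is an activating change in its kinase domain. All 6 samples carry the strain label C57BL6 and came from cells sorted for high α6 integrin, the laminin receptor subunit with which basal keratinocytes hold on to the basement membrane. No further allele or agent is named for either group. The Cre driver, if there was one, the cells in which the allele was active and any pooling of animals were not given in the sources used here. Genes were chosen by name: symbols that begin with Rpl or Rps and a digit, with Rplp0, Rplp1, Rplp2 and Rpsa, and without ribosomal S6 kinases, the S19-binding protein and rows marked as pseudogenes. This gave 87 of the 24354 rows of the table: 46 of the large subunit, 31 of the small subunit and 10 paralogs. The paralogs are genes named after a core gene, and how much sequence they share with other transcripts differs widely.

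A ribosome holds most of its proteins once, and cells make them in amounts that match each other. The mRNAs of these proteins are short, abundant and marked at their 5′ end by a run of pyrimidines, the terminal oligopyrimidine (TOP) tract. PI3K acts through the kinase complex mTORC1 on the translation of TOP mRNAs, with Larp1 as a protein that binds the tract, and mTORC1 also activates the S6 kinases that phosphorylate Rps6. That control acts mainly on how well the mRNAs are translated, which RNA sequencing does not measure. In the epidermis, basal keratinocytes are the dividing cells and have a high demand for protein synthesis.

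The TOP tract can be seen in the annotated start sites, taken from RefSeq on GRCm38.p6, which gave a start within 100 bases of the deposited locus for 62 of the 87 genes. Each stretch below runs 5′ to 3′ from 15 bases before the start site, so that the start is its 16th base, and the capitals mark the longest run of C and T that reaches within 10 bases of the start. The first 4 are core genes with a long run and the next 3 are core genes without one, and the last 4 are core genes with their paralogs.
Rps6: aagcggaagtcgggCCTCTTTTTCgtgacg
Rpl15: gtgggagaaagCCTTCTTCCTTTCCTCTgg
Rpl35: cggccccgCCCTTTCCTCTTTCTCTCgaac
Rpl28: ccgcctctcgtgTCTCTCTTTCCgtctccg
Rps3: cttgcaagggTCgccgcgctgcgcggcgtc
Rpl10: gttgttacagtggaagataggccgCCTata
Rpl26: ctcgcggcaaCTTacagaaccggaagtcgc
Rps27: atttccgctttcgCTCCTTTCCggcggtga
Rps27l: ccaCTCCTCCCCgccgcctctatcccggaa
Rpl22: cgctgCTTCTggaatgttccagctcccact
Rpl22l1: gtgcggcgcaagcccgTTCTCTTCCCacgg
The stretch of Rps6 lies at chr4:86857353-86857382 on the minus strand, that of Rpl15 at chr14:18270972-18271001 on the minus strand, that of Rpl35 at chr2:39005117-39005146 on the minus strand and that of Rpl28 at chr7:4792950-4792979 on the plus strand. Rps3 is shown at chr7:99483695-99483724 on the minus strand, Rpl10 at chrX:74270801-74270830 on the plus strand and Rpl26 at chr11:68901551-68901580 on the plus strand. Rps27 is shown at chr3:90213634-90213663 on the minus strand, Rps27l at chr9:66946071-66946100 on the plus strand, Rpl22 at chr4:152324421-152324450 on the plus strand and Rpl22l1 at chr3:28805493-28805522 on the plus strand.

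An unbroken run of at least 8 bases that are C or T, read on the transcript strand and reaching within 10 bases of the start, was present in 26 of the 62 ribosomal protein genes with a start site (41.9%) and in 13.4% of the 14933 genes with one. The start base itself was C in 33.9% of the 62 genes and in 13.8% of all genes with a start site. An annotated start can lie a few bases from the one used in these cells, so a missing run says only that the letters were not in that window. In Rps27l the run of 9 pyrimidines ends 4 bases before the annotated start, whereas in Rps27 the run of 9 spans the start.

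Levels in FPKM, which count fragments per transcript length and relative to a total of the library, were deposited for each gene and library, and the number of reads behind them is unknown. The deposited FPKM summed to 656761 to 767148 in WT and to 538627 to 651769 in PIK, and the scaling between libraries was not given in the sources used here. Differences between genes were tested with limma on log2(FPKM + 1) over the 11385 genes whose mean reached 1 FPKM, with Benjamini-Hochberg adjustment over all of them and a threshold of 0.05, and every log2 fold change below is PIK minus WT on that scale. Separate animals are not named in the labels, and a p-value here therefore measures sample-to-sample spread, part or all of which could be technical. All 7 basal keratinocyte markers were above 1 FPKM, and their summed level was 25638 to 26026 FPKM in WT and 23631 to 27053 FPKM in PIK, with 3 of the 7 called lower and 1 higher in PIK. The summed level of 4 suprabasal markers (Krt1, Krt10, Ivl, Lor) was 2791 to 3573 FPKM in WT and 10483 to 13135 FPKM in PIK, with 2 called higher and 1 lower. Of 5 erythroid markers listed, 4 were in the table, and they summed to 193 to 250 FPKM in WT and to 70.6 to 123 FPKM in PIK. The 6 fibroblast markers summed to 369 to 501 FPKM in WT and to 303 to 337 FPKM in PIK, and the 5 melanocyte markers to 15.3 to 21.0 FPKM and 10.7 to 14.3 FPKM. The 3 skeletal muscle markers summed to 8.52 to 15.6 FPKM in WT and to 4.24 to 4.67 FPKM in PIK. Endothelial markers summed to at most 2.02 FPKM and immune markers to at most 6.89 FPKM in any library, with Cd207 at 0 in every library. Called lower in PIK were 2 of the 4 erythroid, 1 of the 6 fibroblast, 2 of the 5 melanocyte and 2 of the 3 muscle markers, and 0 were called higher. Of all genes tested, 22.8% were called lower. The suprabasal, erythroid, fibroblast, melanocyte and muscle sums thus moved with genotype, though not every marker in them was called, and their part in the values below was not tested.

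The cytosolic ribosomal protein genes were lower in the PIK samples as a group and by nearly the same factor. Of the 84 genes tested, 80 fell and 0 rose past the threshold in limma, where 22.8% of all genes tested fell and 23.2% rose. At an unadjusted p under 0.05, 1 gene (Rpl26) was higher. The median log2 fold change of the 84 genes was -0.83, against 0.01 for all genes tested, and the quartiles of the 84 genes were -0.91 and -0.75. The WT and PIK libraries did not overlap, with PIK lower, for 80 of the 84 genes, against 26.9% of all genes tested, and with PIK higher for 1 (Rpl26), against 29.1%. In sorted bulk samples, fewer cells of a type and less RNA per cell cannot be told apart. The remaining 3 genes were below the filter. Rpl10l was listed at 0 in every library, Rpl3l reached at most 0.0563 FPKM, and Rpl39l lay between 0.291 and 0.717 FPKM. These are paralogs known from testis (Rpl10l, Rpl39l) and from heart and skeletal muscle (Rpl3l).

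How far the genes fell depended on how the libraries were put on a common scale. When every library was forced to the same distribution of values (quantile normalization), 39 of the 84 genes fell, 2 rose (Rpl26 and Rps27l) and the median was -0.16. That setting gives the highest ranks the same values in every library. Ribosomal protein genes made up 66 of the 100 rows with the highest mean, small RNAs left out. A joint fall of these genes can thus be removed in part by the setting itself. Calls lost under it therefore do not show that a gene kept its level. Scaling to the same total FPKM gave 78 genes that fell, 4 that rose (Rpl26, Rpl7l1, Rps27l and Rps4l) and a median of -0.50, while the median of all genes moved to 0.30 and the share of calls that were higher from 50.5% to 86.5%. Scaling by the median ratio of genes outside the family, small RNAs left out, gave 80 genes that fell, 0 that rose and a median of -0.85. The factors of that scaling lay between 0.989 and 1.014, so it changed the deposited values little. The groups' order for the family does not depend on scaling when it is read as a share of each library.

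**Figure D1:**
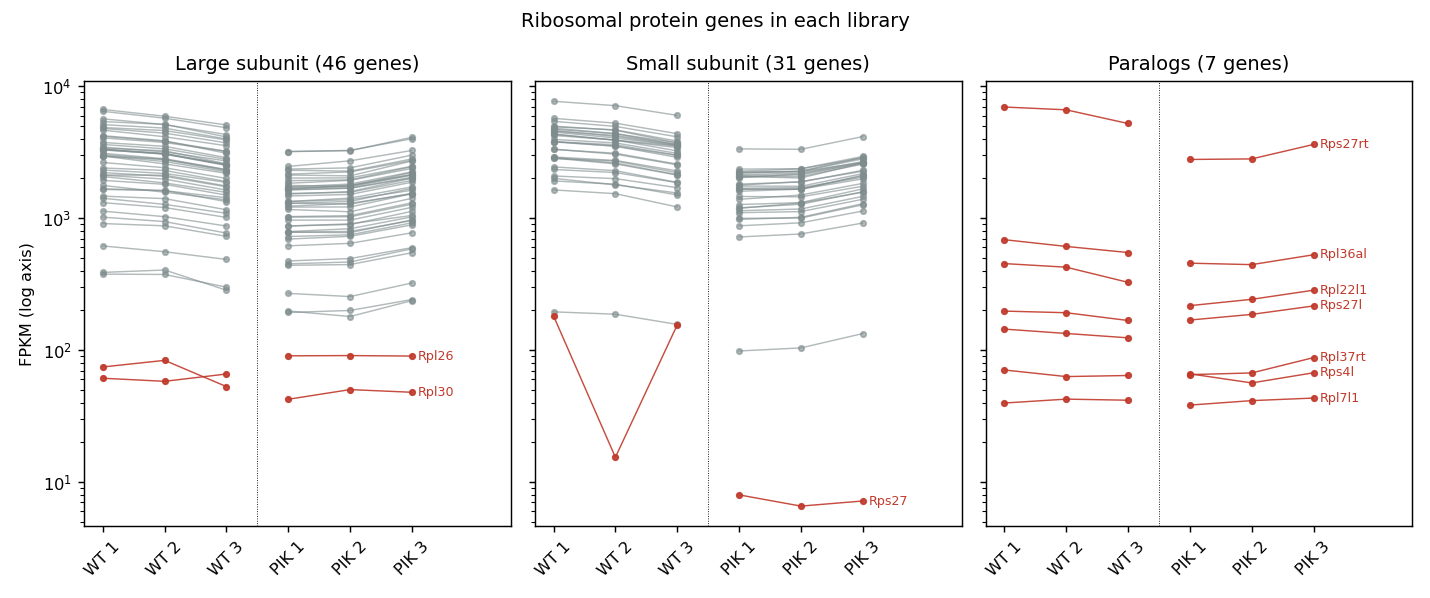
FPKM (log axis) of each tested ribosomal protein gene in each of the 6 libraries, in panels for the large subunit, the small subunit and the paralogs; each line joins the values of 1 gene within a group, and red lines are named. Most lines keep their order and drop together from WT to PIK, with Rpl26, Rps27 and several paralogs apart from the rest.

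Together the 87 genes summed to 250057, 231058 and 193150 FPKM in WT and to 113330, 116073 and 143237 FPKM in PIK. Each WT sum was above each PIK sum, and the mean PIK sum was 44.7% below the mean WT sum (224755 ± 28972 and 124213 ± 16532 FPKM, SD, n = 3 each). As a share of the summed FPKM of a library, which no scaling of that library changes, the genes took 33.2%, 30.1% and 29.4% in WT and 20.9%, 21.5% and 22.0% in PIK. The mean share was 30.9% ± 2.02 in WT and 21.5% ± 0.551 in PIK (SD, n = 3 each), and the groups did not overlap. Leaving out the 3 most abundant genes gave 28.3% ± 1.85 and 19.7% ± 0.503. The summed FPKM of all other rows was 463611 to 536090 in WT and 422554 to 508532 in PIK, so these ranges overlapped. With small RNAs left out it was 446937 to 485666 in WT and 400399 to 438188 in PIK, without overlap and 11.6% lower in PIK by the means. A value per length is not a share of mRNA molecules, and FPKM of short mRNAs depend on how the authors' software treated their length.

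**Figure D2:**
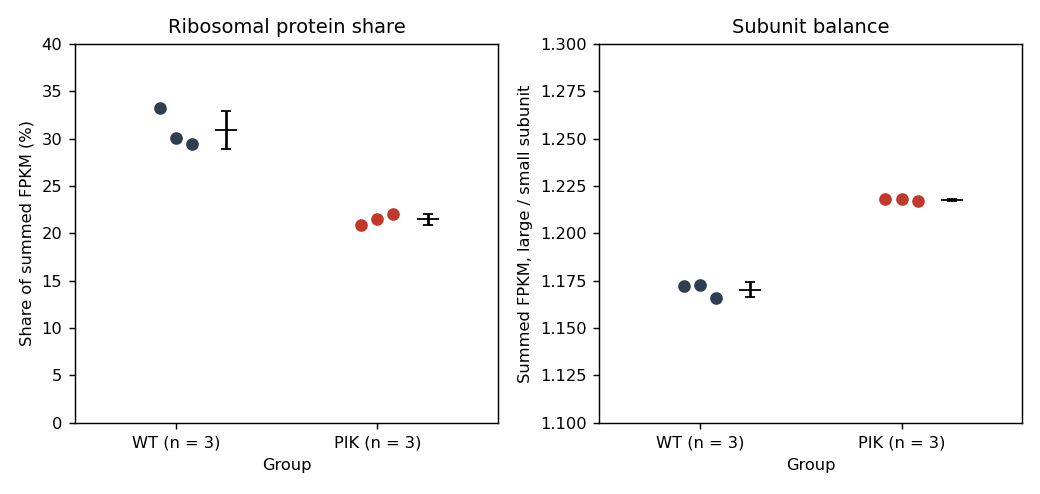
Left, the share of the summed FPKM (%) taken by ribosomal protein genes; right, the ratio of the summed FPKM of large to small subunit genes, on an axis that starts at 1.1. Points are libraries and the bars to their right are the mean ± SD of 3 libraries; the share is 29.4% to 33.2% in WT and 20.9% to 22.0% in PIK, and the ratio is higher in each PIK library than in each WT library.

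Both subunits took part. Of the 46 large subunit genes, 45 fell, with a median log2 fold change of -0.82, and of the 31 small subunit genes 31 fell, with a median of -0.87. For 68 of the 77 core genes (those that are no paralogs) the mean in PIK was between 0.5 and 0.667 of the mean in WT, with a median ratio of 0.558. The 66 core genes whose mean reached 1000 FPKM fell without exception, between -1.11 and -0.65 on the log2 scale, with a standard deviation of 0.103 between genes. The genes that lay outside that range, such as Rpl26, Rpl30 and Rps27, were among the 11 core genes with a lower level. The order of the core genes by level stayed close to the same in the groups: Spearman's rho between the WT and PIK means was 0.987 across 77 genes, which share the same libraries and are not independent replicates.

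The balance between the subunits moved by a small amount. The summed FPKM of the large subunit genes divided by that of the small subunit genes was 1.172, 1.173 and 1.166 in WT and 1.218, 1.218 and 1.217 in PIK. The groups did not overlap, and the ratio was 1.17 ± 0.00379 in WT and 1.22 ± 0.000577 in PIK (SD, n = 3 each). With the abundant row Rps27rt added to the small subunit, the ratios were 1.103, 1.102 and 1.099 in WT and 1.153, 1.154 and 1.15 in PIK. That row has the name of a paralog but is listed at the locus of Rps27. The gap between the median log2 level of the large and of the small subunit genes, which does not rest on the most abundant genes, was -0.363, -0.417 and -0.43 in WT and -0.353, -0.336 and -0.402 in PIK, so that measure overlapped.

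Among the most abundant genes, Rps12, a small subunit protein, had the highest level, at 7695.7, 7128.4 and 6016.2 FPKM in WT and 3350.2, 3328.1 and 4156.2 FPKM in PIK. Its log2 fold change was -0.94 (SE 0.174, limma adjusted p = 0.0034). Rplp1, an acidic protein of the ribosomal stalk, was the most abundant large subunit gene, with 6671.7, 5927.1 and 5090.8 FPKM in WT and 3196.6, 3247.8 and 4104.0 FPKM in PIK. It fell by 0.75 (SE 0.177, limma adjusted p = 0.0104). For each of these genes WT replicate 1 was the highest library and PIK replicate 3 the highest of its group. The other members of the 5 most abundant in each subunit were Rpl41, Rpl39, Rpl28 and Rpl23a, and Rps20, Rps15, Rps4x and Rps18. Their log2 fold changes lay between -1.03 (Rpl28) and -0.70 (Rpl41), and their WT and PIK libraries did not overlap.

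The stalk of the large subunit, which recruits the elongation factors, is built from Rplp0, Rplp1 and Rplp2 on a base that includes Rpl12. The 4 genes fell, by 0.96, 0.75, 0.94 and 0.86 in that order. Rpl5 and Rpl11, which bind the small RNA of the large subunit and can hold back Mdm2, the ubiquitin ligase of p53, fell by 0.80 and 0.72. Rpl4 and Rpl39, which line the tunnel through which the new protein leaves, fell by 0.74 and 0.80. Rpl10, which joins the large subunit late, in the cytoplasm, was at 3333.8, 3059.0 and 2507.4 FPKM in WT and at 1657.0, 1759.9 and 2125.4 FPKM in PIK, and fell by 0.68 (SE 0.158, limma adjusted p = 0.00961). Under quantile normalization the sign of Rpl4, Rpl10 and Rpl11 was no longer negative (0.00, 0.09 and 0.02).

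Rps6, the substrate of the S6 kinases, was at 2447.8, 2291.3 and 1867.9 FPKM in WT and at 1139.1, 1173.7 and 1463.6 FPKM in PIK. Its lowest WT library was above its highest PIK library, and its log2 fold change was -0.81 (SE 0.152, limma adjusted p = 0.00373). Rpsa, which is also known as a laminin receptor, fell by 0.83 (1928.9 ± 201 FPKM in WT and 1087.8 ± 151.9 FPKM in PIK, SD, n = 3 each). Rps27a, which is made as a fusion with ubiquitin, fell by 0.72. Another 5 genes, with mouse mutants known for skin, coat or tail changes, fell as well: Rps19 and Rps20, in which dominant alleles darken the skin, by 0.89 and 1.0, Rpl24 (belly spot and tail) by 0.81, Rpl38 (tail short) by 0.84 and Rpl27a (sooty foot) by 0.85. Rps6, Rps19 and Rps27a were among the 41 genes that lost their call under quantile normalization.

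Rps28 was among the genes of high level with a large fall. Rps28, of the small subunit, was at 4242.2, 3910.7 and 3513.3 FPKM in WT and at 1685.8, 1704.3 and 2044.9 FPKM in PIK. The lowest WT library was well above the highest PIK library, and the log2 fold change was -1.10 (SE 0.141, limma adjusted p = 0.000619). Rpl28, a large subunit protein, was at 5665.8, 5125.2 and 4307.3 FPKM in WT and at 2309.6, 2272.0 and 2812.9 FPKM in PIK, a fall of 1.03 (SE 0.164, limma adjusted p = 0.00176).

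The genes moved together between libraries of the same group too. The order WT replicate 1 above 2 above 3 held in 78 of the 84 tested genes (92.9%) and in 21.9% of the other genes tested, and PIK replicate 3 was the highest of its group in 81 of the 84 (96.4%) against 42.4% of the other genes. Replicate numbers carry no order of their own, so this says only which libraries were high and low. When each library was scaled so that the 87 genes had the same sum, the median standard deviation of a gene within a group went from 0.186 to 0.024 on the log2 scale. Across all genes tested it was 0.101 as deposited. Most of the spread of these genes between replicates was therefore shared by the family.

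With the libraries on that common family scale, a gene's departure from the family could be measured with less spread and without the deposited scaling. Of the 77 core genes, 73 lay within 0.25 of the family level on the log2 scale. Past the threshold, 23 of the 84 genes were above the family level in PIK and 16 were below it. On this scale 84.2% of all genes tested were above and 2.14% below, since most genes did not fall with the family. With that many calls the adjustment hardly raises the p-values, and the highest unadjusted p among the called ribosomal protein genes was 0.0392, so small departures are weakly held. Leaving out 1 library in turn left 10 to 14 genes below and 17 to 21 above, with 10 below without PIK replicate 2. In each of 10 fits, 17 genes were above and 10 below.

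Below the family level were, among others, Rps28 (-0.25, SE 0.0358), Rps27rt (-0.17), Rpl28 (-0.17), Rps15 (-0.17) and Rps20 (-0.14), each with a limma adjusted p of at most 0.000348. Among abundant core genes above it were Rpl3 (0.21, SE 0.0359), a large subunit protein near the site of peptide bond formation, Rpl10 (0.17), Rpl41 (0.16), Rps27a (0.14), Rpl11 (0.13) and Rpl4 (0.12). Of the stalk proteins, Rplp1 was above the level (0.11, SE 0.0251, limma adjusted p = 0.00182), and was so in each of the 10 fits. Rplp0 (-0.10, SE 0.0305, limma adjusted p = 0.00921) and Rplp2 (-0.09, SE 0.0298, limma adjusted p = 0.0189) were below it. These calls of Rplp0 and Rplp2 were not kept in each of the 10 fits. Rpl12 was at -0.01 and Rps6 at 0.05, neither past the threshold. These are log2 differences from a falling family: each core gene named in this paragraph was lower in PIK than in WT in deposited FPKM.

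**Figure D3:**
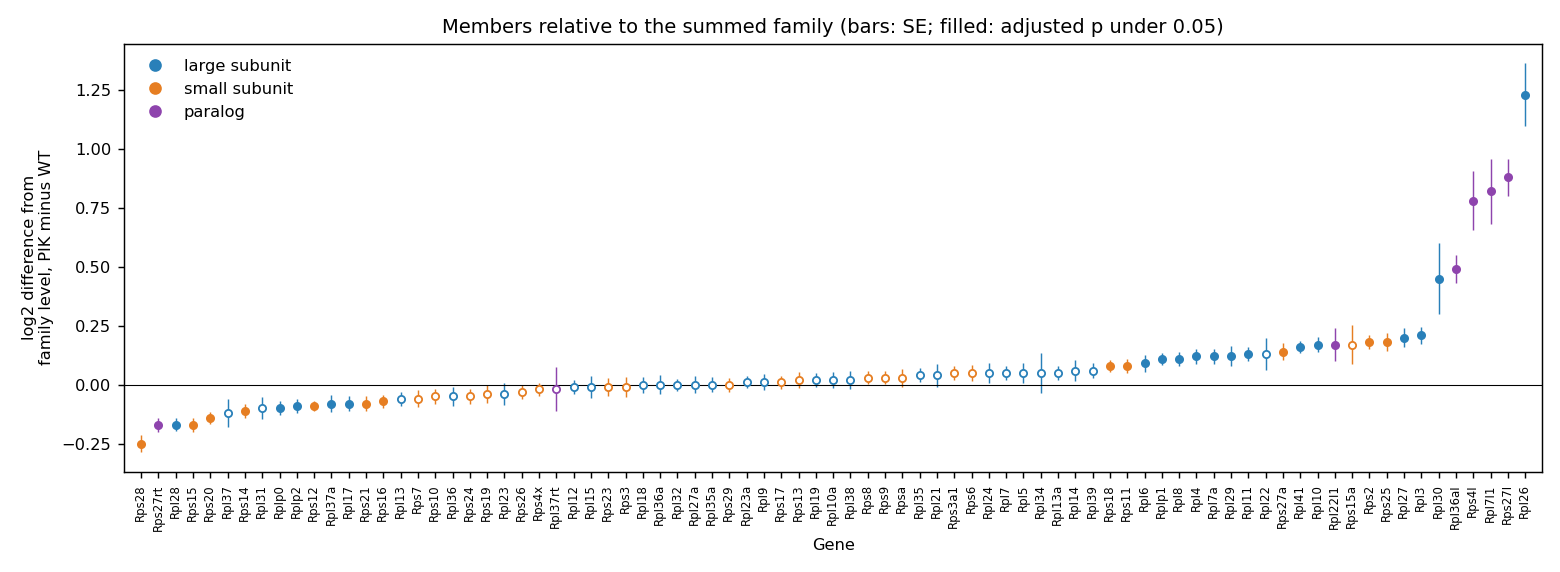
Log2 difference from the family level, PIK minus WT, for 81 of the 84 tested genes in order of size, after each library was scaled to the same summed FPKM of ribosomal protein genes; Rps27 (-2.44) and 2 genes not reported here are left off the plot. Bars are the SE and filled points passed an adjusted p of 0.05; most genes lie near 0, and Rpl26, Rps27l, Rpl7l1, Rps4l, Rpl36al and Rpl30 stand above.

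The 4 tested genes that did not fall were Rpl26 and the paralogs Rps27l, Rpl7l1 and Rps4l. Rpl26, a large subunit protein that can bind the p53 mRNA, was at 74.5, 83.6 and 52.9 FPKM in WT and at 90.5, 90.9 and 90.1 FPKM in PIK. Each PIK library was above each WT library, and the log2 fold change of 0.39 did not pass the threshold (SE 0.148, limma adjusted p = 0.0647), though it passed as higher without WT replicate 2 (0.52). Without WT replicate 3, the lowest library, the log2 fold change was 0.20, and with library weights it was 0.21. Relative to the family the difference was 1.23 (SE 0.132, limma adjusted p = 2.9e-05). Its level was far below that of most core genes, and the deposited interval around its values had a halfwidth of 220% of the value. Besides Rpl26, the halfwidth was over 100% for 5 of the tested genes, namely Rpl30, Rpl34, Rplp0, Rps15 and Rps27. The intervals of the family were wide in general. The median halfwidth of the tested ribosomal protein genes was 59.6% to 67.0% in the WT libraries and 48.7% to 53.7% in the PIK libraries. Over all genes tested it was 34.9% to 35.2%. Among core genes Rpl30 showed the next smallest change, from 61.7 ± 3.94 FPKM in WT to 46.8 ± 4.0 FPKM in PIK (SD, n = 3 each), a fall of 0.39 (SE 0.0802, limma adjusted p = 0.00539), a call that did not pass under scaling to equal total FPKM, with or without small RNAs and ribosomal protein genes in that total.

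Of the 10 paralogs, 7 were tested, and 4 of these fell (Rpl22l1, Rpl36al, Rpl37rt and Rps27rt), against 22.8% of all genes tested. The median log2 fold change of the 7 was -0.37. The row named Rps27rt is listed at the locus of Rps27, so its values may be those of the core gene. Rps27l, which p53 is known to induce, was at 197.6, 192.0 and 167.7 FPKM in WT and at 169.0, 186.5 and 216.1 FPKM in PIK. The groups overlapped, and the log2 fold change was 0.03 (SE 0.106, limma adjusted p = 0.819). Rpl7l1, a paralog of Rpl7, was at 39.7, 42.5 and 41.7 FPKM in WT and at 38.3, 41.4 and 43.3 FPKM in PIK. These values overlapped too, with a difference of -0.01 (SE 0.0646, limma adjusted p = 0.907), while Rpl7 itself fell by 0.81. Rps4l had means of 65.9 ± 4.14 FPKM in WT and 63.3 ± 5.96 FPKM in PIK (SD, n = 3 each), with a difference of -0.06 (limma adjusted p = 0.576), while its partner Rps4x fell by 0.87. Rps4l and Rpl37rt were not found in GENCODE M21, and the row of Rps4l is listed over a wide locus, chr6:148047416-148444352. Other rows of the family, among them Rps15, Rpl38, Rpl5 and Rps27a, are also listed over loci much longer than the annotated gene.

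Rpl36al, a paralog of Rpl36a, was at 687.2, 610.8 and 549.1 FPKM in WT and at 456.0, 444.5 and 527.9 FPKM in PIK, a fall of 0.37 (SE 0.112, limma adjusted p = 0.0289), beside -0.86 for Rpl36a. The call did not pass with the same total FPKM (-0.04), under quantile normalization (-0.08), with no filter or with a replicate block (-0.37 in each), or without WT replicate 1 (-0.29), WT replicate 2 (-0.37), PIK replicate 1 (-0.34) or PIK replicate 2 (-0.32). Rpl22l1, whose start site carries a run of 10 pyrimidines, fell by 0.69 and Rpl22 fell by 0.73. Rpl22 was at 376.8, 374.4 and 300.1 FPKM in WT and at 192.8, 199.8 and 241.8 FPKM in PIK, and Rpl22l1 was at 452.8, 425.1 and 326.5 FPKM in WT and at 217.3, 242.6 and 284.5 FPKM in PIK. The log2 ratio of the paralog to its partner lay between 0.12 and 0.28 in the 6 libraries.

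Ratios of paralog to partner within a library, which no scaling of that library changes apart from the added 1 FPKM, were compared for 7 pairs with a two-sided exact permutation test, in which 3 against 3 libraries cannot give a p below 0.1. The log2 ratio of Rpl7l1 to Rpl7 was higher in PIK by 0.80 and that of Rps4l to Rps4x by 0.81, and that of Rpl36al to Rpl36a by 0.49. In these 3 pairs the ratio was higher in each PIK library than in each WT library (exact p = 0.1, 0.175 after adjustment over the 7 pairs). Of all genes tested, 84.2% were above the family level in PIK, so a higher ratio to a core gene is not particular to these paralogs. The ratio of Rpl22l1 to Rpl22 differed by 0.04 and that of Rpl37rt to Rpl37 by 0.10, and their libraries overlapped (exact p = 0.5 and 0.2, 0.5 and 0.28 after adjustment).

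**Figure D4:**
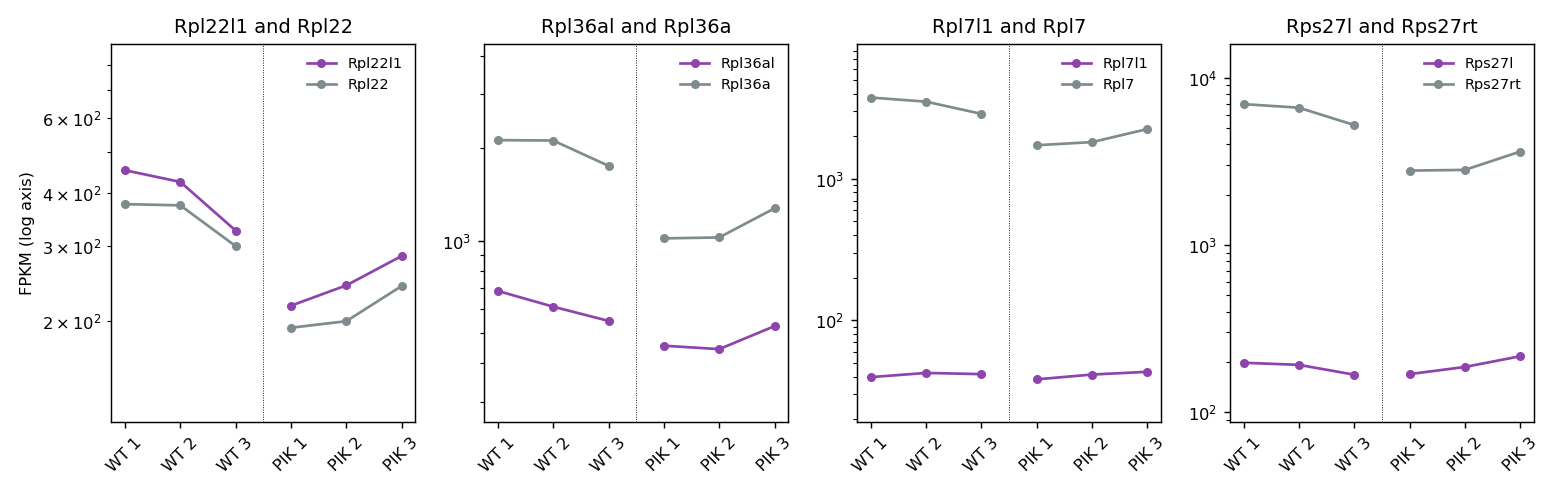
FPKM (log axis) in the 6 libraries for 4 paralogs (purple) and a core or abundant copy (grey): Rpl22l1 with Rpl22, Rpl36al with Rpl36a, Rpl7l1 with Rpl7, and Rps27l with Rps27rt. Lines join the libraries of 1 group; Rpl22l1 drops with Rpl22, whereas Rpl7l1 and Rps27l overlap between WT and PIK.

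Rps27 had values that varied widely between WT libraries. It was listed at 181.5, 15.4 and 155.2 FPKM in WT and at 7.99, 6.57 and 7.18 FPKM in PIK, and its log2 fold change was -3.24 (SE 0.801, limma adjusted p = 0.0125). Without WT replicate 2, the lowest of its group, the log2 fold change was -4.36, without WT replicate 1 it was -2.62 and without WT replicate 3 it was -2.73. The row Rps27rt, listed at the same locus, had 6962.6, 6628.6 and 5221.3 FPKM in WT and 2787.3, 2814.2 and 3621.6 FPKM in PIK. GENCODE M21 places Rps27rt elsewhere, on chromosome 9, and its transcript shared 91.1% of its 50-base windows with Rps27. Whether the values of this row belong to Rps27rt or to Rps27 cannot be told. The transcripts of Rps27 shared 98.6% of their 50-base windows with other transcripts, and the deposited interval around the Rps27 values had a halfwidth of 300% of the value, so its own change is uncertain. Summed, Rps27 and Rps27rt were at 7144.1, 6644.0 and 5376.5 FPKM in WT and at 2795.3, 2820.7 and 3628.8 FPKM in PIK, a log2 difference of -1.05, beside the median of -0.87 for the small subunit genes. The ratios of Rps27l and of Rps27rt to Rps27 rest on the same uncertain values: the differences were 3.27 (exact p = 0.1, adjusted 0.175) and 2.21 (exact p = 0.3, adjusted 0.35).

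Sharing of sequence with other genes and pseudogenes was common in the family. Of the 85 genes found in the GENCODE M21 annotation, 82 shared at least 1 window of 50 bases with the transcripts of another gene, and the median share was 54.5%. The fall was seen at low and high shares: the 23 tested genes with at least 75% shared windows had a median log2 fold change of -0.83 and 23 of them fell, the 49 with 25% to under 75% had a median of -0.85 and 48 fell, and of the 10 with under 25% 8 fell, with a median of -0.77. Of the 5 with under 10% (among them Rpl7l1, Rpl8, Rps3 and Rps20) 4 fell, with a median of -0.87. The share was taken over 1 annotated transcript per gene, and a long transcript lowers it. For Rps20 that transcript had 3706 bases, and 50 other genes shared windows with it. A low share therefore need not mean that little of the mRNA was shared. Rps3, whose start site has no long pyrimidine run, was at 1637.7, 1534.0 and 1216.6 FPKM in WT and at 720.7, 759.1 and 918.5 FPKM in PIK, a fall of 0.87 (SE 0.147, limma adjusted p = 0.00233).

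The median change was the same for core genes with and without a long pyrimidine run at the annotated start. The 24 core genes with a run of at least 8 had a median log2 fold change of -0.84, and the 30 with a shorter run had a median of -0.84. Rpl35 and Rpl15, with runs of 18 and 17 bases, fell by 0.82 and 0.86, beside 0.87 for Rps3 with a run of 2. A gene without a run in the window can still have a TOP tract. Some long runs, such as that of Rpl4, end before the annotated start. The part of the tract in the fall was not tested. Small nucleolar RNAs, which guide modification of ribosomal RNA, lie in introns of 30 of the 77 core genes. These 30 hosts had a median log2 fold change of -0.83 and the other 47 core genes had a median of -0.85.

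Ribosomal proteins that the name rule does not take fell as well. Fau, a ubiquitin-like protein fused to a small subunit protein, fell by 0.88, and Gnb2l1 (Rack1), a signalling scaffold on the small subunit, by 0.87. Of 15 other genes whose mRNAs are known for TOP tracts, most of them translation factors, 14 fell, against 22.8% of all genes tested. Their median log2 fold change was -0.53. Among them were Eif4b (-0.51, SE 0.0706, limma adjusted p = 0.000932), Eif3f (-0.64, SE 0.101, limma adjusted p = 0.0017) and Pabpc1, the poly(A)-binding protein (-0.50, SE 0.0801, limma adjusted p = 0.00171), and Eif2s3x at 0.02 did not pass. The gap between the median log2 level of the ribosomal protein genes and that of these TOP genes was 2.60, 2.44 and 2.51 in WT and 2.45, 2.42 and 2.42 in PIK, so the groups overlapped. Gene by gene, 11 of the 15 were above the family level in PIK, against 84.2% of all genes tested. Their median on that scale was 0.32, against 0.76 for all genes tested.

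Genes that build ribosomes did not follow the proteins of the finished ribosome. Of 28 ribosome assembly genes, 2 fell and 9 rose, with a median log2 fold change of 0.07. For this and the next lists, the shares over all genes tested were 22.8% that fell and 23.2% that rose. Sbds, which helps to release an assembly factor from the large subunit, fell by 0.80 (SE 0.082, limma adjusted p = 0.000214), and Nob1, the nuclease that trims the RNA of the small subunit, fell by 0.32. Tsr1 rose by 0.52 (SE 0.0628, limma adjusted p = 0.000474) and Rrs1 by 0.45 (SE 0.0639, limma adjusted p = 0.00106). Of 18 genes for RNA polymerase I and its factors, 4 fell (among them Polr1c by 0.65 and Taf1d by 0.56) and 7 rose (among them Ubtf by 0.27), with a median of 0.06. Of the 77 mitochondrial ribosomal protein genes, which serve the separate ribosome of mitochondria, 13 fell and 13 rose, with a median of 0.03. Mrps2 rose by 0.57 and Mrpl36 by 0.64, and Mrpl45 fell by 0.63. The gap of medians between the cytosolic and the mitochondrial family within a library was 6.62, 6.46 and 6.27 in WT and 5.54, 5.62 and 5.66 in PIK on the log2 scale, without overlap. That gap does not depend on the scaling of a library, apart from the added 1 FPKM.

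A list of mTORC1 components, proteins that act for it on translation and members of the Myc network held 13 genes. Of these, 1 fell and 4 rose, where 22.8% of all genes tested fell and 23.2% rose. Their median log2 fold change was 0.05. Mxi1, an antagonist of Myc, was at 12.4, 12.1 and 12.4 FPKM in WT and at 7.42, 7.38 and 7.34 FPKM in PIK, a fall of 0.66 (SE 0.0542, limma adjusted p = 6.66e-05). Those that rose were Rps6kb2 (0.54) and Rps6kb1 (0.25), which encode S6 kinases, Eif4ebp2 (0.49), a repressor of cap-dependent translation, and Larp1 (0.41). Myc, which drives ribosome synthesis, differed by -0.17 (limma adjusted p = 0.0897).

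Other abundant rows fell more often than they rose. Of the 277 other rows with a mean of at least 200 FPKM, 134 fell (48.4%) and 22 rose, where 22.8% of all genes tested fell and 23.2% rose. Their median log2 fold change was -0.29, beside -0.83 for the ribosomal protein genes. Of the 100 rows with the highest mean, small RNAs left out, 66 were ribosomal protein genes, so few other genes reach their level. The part that level plays in the fall of the family was not tested.

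**Figure D5:**
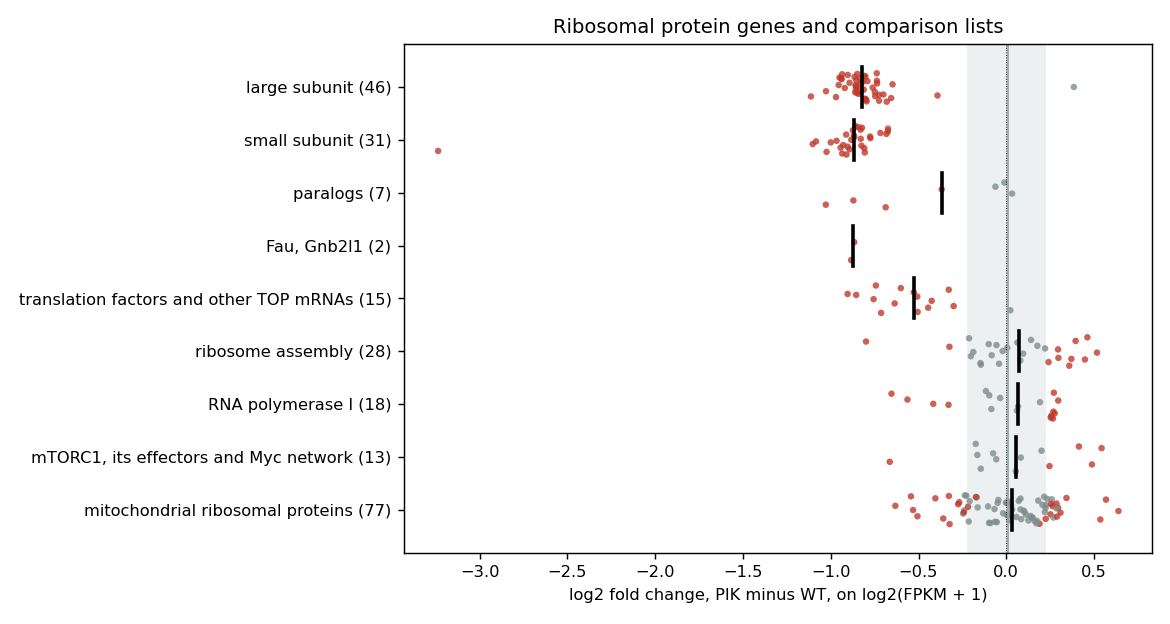
Log2 fold change, PIK minus WT, of tested genes in the subunits, the paralogs and the comparison lists. Red points passed an adjusted p of 0.05 and grey points did not, thick lines are list medians, and the grey band runs from the lower to the upper quartile of all genes tested; the subunit lists lie near -0.8, whereas the assembly, RNA polymerase I, mTORC1 and Myc, and mitochondrial lists are centred near 0.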

How the data were processed

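RNA of 6 sorted samples was sequenced. The deposited values are FPKM per gene and library with interval bounds, made by the authors with TopHat and Cufflinks, per the submitters' processing notes; versions, the length model and the scaling between libraries were not given in the sources used here. Depth is unknown. The notes name mm9, but 84 of the 85 ribosomal protein genes in GENCODE M21 lay at their GRCm38 position.

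limma 3.58.1 (R 4.3.3) was fitted on log2(FPKM + 1) to the 11385 genes whose mean reached 1 FPKM, empirical Bayes with a trend, Benjamini-Hochberg threshold 0.05. It was tested on simulated data. Python 3.11.15, numpy 2.4.6, pandas 2.3.3 and matplotlib 3.10.9 made tables and figures. The members, lists and the rule for named genes were chosen with earlier results of these data known. The rule takes the 5 most abundant genes per subunit, paralogs with partners, the 4 largest and smallest changes, genes not called, the 4 furthest above and below the family, genes with set roles, and up to 3 genes of each list by smallest p. Rpl8, Rpl15, Rpl30, Rpl34, Rpl35, Rps3, Nob1, Myc, Larp1, Rps6kb1 and Eif2s3x were named after their values were seen. FPKM are not counts, so no count model was run. Alternatives changed the pseudocount, filter, scaling, variance prior, library weights, replicate block and libraries. A few genes under this rule are not reported here.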

Additional observations from a re-analysis of the deposited data

How the results depend on the processing

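The median fold change of the family was negative in each setting tried, but its size and the number of calls depended on the scaling between libraries, which the data used here do not settle. Under quantile normalization 39 genes fell (21 of the large and 15 of the small subunit), 2 rose and the median log2 fold change was -0.16. That setting can itself remove part of a joint fall of the most abundant genes. With the same total FPKM 4 rose and the median was -0.50, and with the same total of rows that are neither small RNAs nor ribosomal protein genes 2 rose and the median was -0.66. Scaled by the median ratio of genes outside the family, 80 fell, 0 rose and the median was -0.85. Leaving out each library gave 75 to 80 genes lower, 0 to 1 higher, 42 to 45 of the large and 30 to 31 of the small subunit lower, medians from -0.94 to -0.77, and 10 to 14 below and 17 to 21 above the family level. The 5 genes that lost their call without 1 of the libraries were Rpl10, Rpl36al, Rpl41, Rplp1 and Rps2: 78 genes fell without WT replicate 1, 75 without WT replicate 2, 77 without PIK replicate 1 and 75 without PIK replicate 2. With no filter 75 fell, and with library weights the call of Rps27 was lost. Single genes were followed over the settings only for the 41 ribosomal protein genes under the naming rule, so sign changes of other genes are not listed. Among the 41, the sign changed under quantile normalization for Rpl10 (0.09), Rpl11 (0.02), Rpl3 (0.01), Rpl4 (0.00), Rpl7 (0.02), Rps18 (0.01) and Rps27a (0.07). It also changed for genes that had not passed: Rpl7l1 (0.31 with the same total, 0.16 with the same total of other rows, 0.06 under quantile normalization, 0.01 without WT replicate 2, 0.04 without PIK replicate 1), Rps4l (0.26, 0.11 and 0.05 in the same scalings, 0.02 without PIK replicate 2) and Rps27l (-0.04 with library weights, -0.04 without WT replicate 3, -0.06 without PIK replicate 3). Over the libraries left out in turn, Rpl7l1 ran from -0.05 to 0.04, Rps4l from -0.11 to 0.02 and Rps27l from -0.06 to 0.12. The cause was not tested. Of 697 values of named genes, 633 kept direction and side of the threshold, 38 lost the call, 7 gained one and 19 changed sign.

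Same-numbered samples did not deviate together in each pair (r across genes 0.127, 0.122 and -0.007), so the replicate block was an alternative only; with it 64 genes fell, and 19 were above and 12 below the family level.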

Other observations

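Rows marked as pseudogenes of these genes followed the family in number: of 6 tested, 5 fell, against 22.8% of all genes tested. Their median log2 fold change was -0.77, and Rps19-ps3 did not pass. The abundant row Rpl34-ps1 and Rpl34 summed to 3343.4 ± 433.8 FPKM in WT and 1993.5 ± 291.2 FPKM in PIK (SD, n = 3 each), a log2 difference of -0.75, close to the fall of Rpl34 alone (0.80). Reads of such copies and of the parent genes cannot be told apart by the table.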
